A study of Mus musculus with 16 samples.

Results

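Nuclear receptors switch genes on or off by recruiting coregulator proteins, and the PGC1 family stands at the head of the coactivators. PGC1α, encoded by Ppargc1a, is an inducible coactivator best known for driving the genes of mitochondrial biogenesis and respiration, and PGC1β (Ppargc1b) and PRC (Pprc1) are its closest relatives. The p160 steroid receptor coactivators (Ncoa1, Ncoa2 and Ncoa3) bind receptors that carry ligand and bring in histone acetyltransferases, MED1 (Med1) links receptors to the Mediator complex, and RIP140 (Nrip1) and NCoR (Ncor1) repress receptor targets, RIP140 often at the same genes that PGC1α activates. In brain, Ppargc1a is best known from inhibitory neurons and Purkinje cells.

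These 9 genes were followed across all 16 arrays of the series, taking every probe set (a group of short probes that reads 1 transcript) whose single gene symbol in the platform annotation was one of them. Of the 9 genes, 8 had such a probe set, with 29 probe sets between them, out of 18194 genes and 34958 probe sets with 1 gene symbol on the array. No probe set carried the symbol Ncor1 alone, so Ncor1 was not analysed by this rule.

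RNA came from 2 parts of the brain, cerebellum and rest of brain, of SINE KO mice and of WT mice, females and males, with 2 arrays for each of the 8 combinations. All mice were on a C57BL/6J background. The SINE KO animals were homozygous for a small CRISPR deletion just behind the start codon in a SINE-derived exon of Ppargc1a. It disrupts the protein of a brain isoform that begins in a simple sequence repeat, runs on through the SINE exon and then joins exon 2, and the reference isoform was left intact. They came from 1 founder line and were set against age-matched WT littermates of no other stated genotype; the ages of these animals were not given in the sources used here. Brains were cleared of brain stem by hand before they were split, and specimens were matched for litter where possible. Nothing in the labels says which cerebellum and rest-of-brain samples came from the same animal. The tests took every array as a separate sample and took no account of litters. Comparisons that pool the brain parts may thus count an animal more than once, and their p-values measure the spread between samples, not between animals. The main tests between cerebellum and rest of brain likewise took no account of any pairing of the 2 parts by animal.

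The deposited values are not intensities. They take only 5 values, which were read as detected (level 2), marginal (level 1), not detected (level 0) and 2 levels below 0 of unsettled meaning, and a probe set was called detected on an array only at level 2. No source states this reading. It rests on genes of known behaviour: 10 of 11 probe sets of Actb, Gapdh, Hprt and Tbp were at level 2 on all 16 arrays, and of the 3 probe sets of Xist, 2 were detected on all 8 female and no male array while the third was detected on all 16. A call says whether a transcript was seen, so no fold change can be given here, and a change in the level of a transcript seen on every array would leave no trace in these values. As the tissue is bulk, fewer cells of a type and less RNA per cell cannot be told apart.

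Across the series, 25517 to 28155 of 45101 probe sets were detected per array. The dissection was checked with marker lists. Granule cell markers were detected at 14 to 20 of 21 probe sets on cerebellum arrays and at 9 to 15 on rest-of-brain arrays, and forebrain markers at 10 to 17 of 23 on cerebellum arrays and 19 to 20 on rest-of-brain arrays. The defining markers Barhl1 and Zic2 (granule cells) each had a probe set detected on 8 cerebellum arrays and 0 rest-of-brain arrays. For Tbr1 and Emx1 (cortex) it was the reverse. Of the granule cell probe sets, 11 were detected on more cerebellum arrays and 0 on fewer. Of the forebrain probe sets, 11 were detected on more rest-of-brain arrays and 1 on fewer. The exception, a probe set of Neurod2, was detected on 7 of 8 cerebellum and 1 of 8 rest-of-brain arrays and is counted in the forebrain totals. The WT female cerebellum replicate 2 stood apart, with the fewest granule cell markers (14) and the most forebrain markers (17) of the cerebellum arrays, and the main counts that rest on it are given without it too. The KO female rest of brain replicate 1 had 21 of 23 Purkinje cell probe sets, against 16 to 18 on the other 7 rest-of-brain arrays. Brain stem markers were detected at 9 and 9 of 13 probe sets in KO female cerebellum, 4 and 0 in WT female cerebellum, and 0 to 4 on every other array.

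The mutated gene was detected throughout. Ppargc1a had 5 probe sets (1434099_at, 1434100_x_at, 1437751_at, 1456395_at and 1460336_at), and each was at level 2 on 8 of 8 KO and 8 of 8 WT arrays, in both sexes and both brain parts. None of the 80 values of this gene was marginal. Since the deletion is small and lies in an exon of 1 isoform, a call of Ppargc1a does not test the genotype labels. The files do not say which exons these probe sets read, and 1434099_at and 1434100_x_at were designed from the same sequence record, so they are not independent views of the transcript. The suffix of 1434100_x_at marks a probe set whose probes can match other transcripts, so it does not stand for Ppargc1a alone.

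The window around the start of the reference Ppargc1a transcript is shown because the isoform disrupted in SINE KO mice begins elsewhere, and because CREB-type factors that act on this promoter were among the genes followed below. It is taken from RefSeq on build GRCm38.p6, minus strand, from 250 bases before to 50 bases after the start, at chr5:51567676-51567975, and capitals mark a match to the half-site of a cyclic AMP response element (TGACG, sought on both strands).
Ppargc1a: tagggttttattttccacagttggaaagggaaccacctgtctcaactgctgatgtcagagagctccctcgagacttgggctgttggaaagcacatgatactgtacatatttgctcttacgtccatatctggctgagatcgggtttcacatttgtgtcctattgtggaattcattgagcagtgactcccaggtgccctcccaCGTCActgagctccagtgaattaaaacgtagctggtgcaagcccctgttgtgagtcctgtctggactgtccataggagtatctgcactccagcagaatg
The half-site occurred once here, at position -49 from the start, and 20.8% of 32851 promoter windows of the same length held at least 1 match. The window had 5 CG pairs, against a median of 7 over all windows, and held no TATAAA. These letters were not tested against any measurement of the series.

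Ppargc1b, whose product coactivates estrogen-related receptors, had 1 probe set (1449945_at), and it was at level 2 on all 16 arrays. The same held for the 1 probe set of Pprc1 (1426381_at), a serum-induced relative that acts with nuclear respiratory factors. The 3 members of the PGC1 family were thus detected on 8 of 8 KO and 8 of 8 WT arrays by all 7 of their probe sets. A further probe set that the study itself names for Ppargc1b (1445574_at), unnamed in the annotation, was also detected on all 16 arrays, as was 1423201_at, which the study names for Ncor1, the corepressor that carries HDAC3 to unliganded receptors. Both were added after the data had been seen and are counted in none of the totals.

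**Figure D1:**
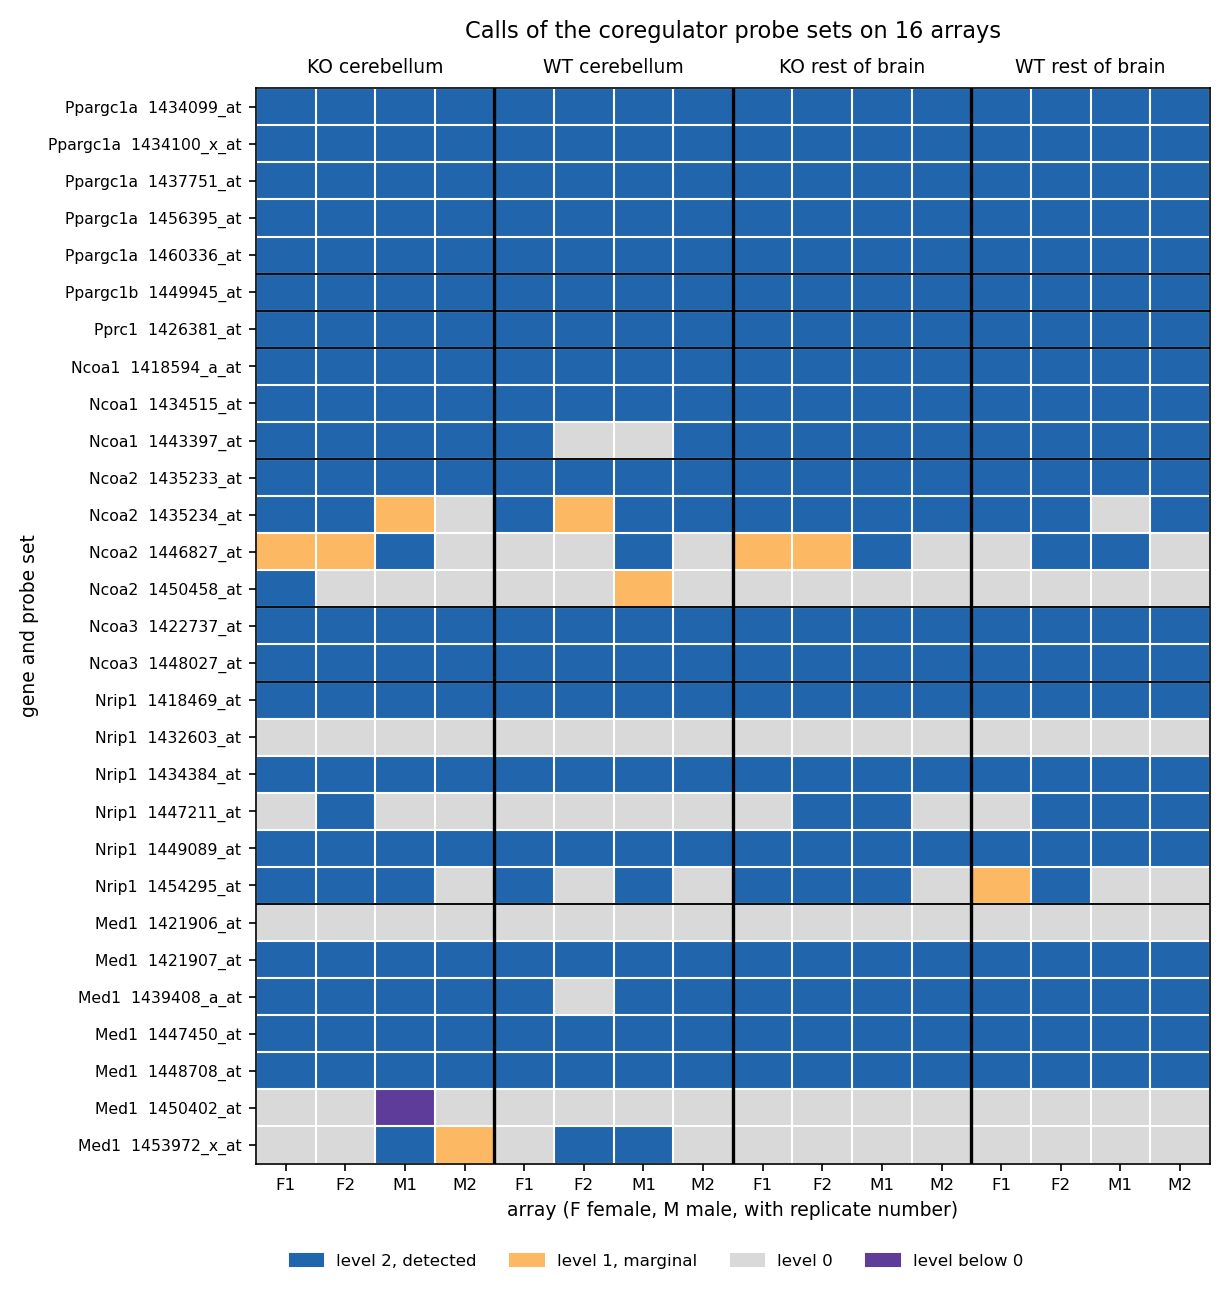
Call of each of the 29 probe sets (rows, grouped by gene) on each of the 16 arrays (columns, KO left of WT within each brain part). Dark blue marks level 2 (detected), orange level 1 (marginal), grey level 0 and purple a level below 0; 18 rows are blue throughout, 3 are never blue, and the other 8 belong to Ncoa1, Ncoa2, Nrip1 and Med1.

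The calls that varied belonged to the p160 coactivators, RIP140 and MED1. Of the 29 probe sets, 18 (62.1%) were detected on all 16 arrays, 3 (10.3%) on none and 8 (27.6%) on some, against 52.5%, 24.4% and 23.1% of all probe sets with 1 gene symbol. Each of the 8 genes had at least 1 probe set on all 16 arrays. Among all 18194 genes 59.3% had one, and among the 859 genes with 5 or more probe sets 94.5% did, while 3 of the 8 coregulators (Ppargc1a, Nrip1 and Med1) have that many. The 6 probe sets designed from RefSeq mRNA records were all detected on every array, against 12 of the other 23 (52.2%). Of these 6, Nrip1 1418469_at and 1449089_at were designed from the same record and are not independent. Over all single-symbol probe sets the shares were 50.0% for those from RefSeq mRNA records and 53.0% for the rest.

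Ncoa1 encodes SRC-1, a coactivator of steroid and thyroid hormone receptors. Its probe sets 1418594_a_at and 1434515_at were detected on all 16 arrays. The third, 1443397_at, was detected on 4 of 4 KO and 2 of 4 WT cerebellum arrays and on 4 of 4 KO and 4 of 4 WT rest-of-brain arrays. The 2 arrays at level 0 were the WT female cerebellum replicate 2 and the WT male cerebellum replicate 1, and the other WT arrays did not differ from the KO arrays. The cerebellum difference gave p = 0.429 in Fisher's exact test, two-sided, with a Benjamini-Hochberg adjusted p of 1. Without the WT female cerebellum replicate 2 it was 4 of 4 KO and 2 of 3 WT arrays (exact p = 0.429). This probe set shared its pattern over the 16 arrays, level for level, with 3 other single-symbol probe sets, those of Ap5z1, Lzic and St6gal1.

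Ncoa2 encodes GRIP1, a p160 coactivator that the glucocorticoid receptor uses. It held 3 of the 8 variable probe sets, while 1435233_at was detected on all 16 arrays. In the cerebellum, 1435234_at was detected on 2 of 4 KO arrays, with levels 2 and 2 in females and 1 and 0 in males, and on 3 of 4 WT arrays, with levels 2 and 1 in females and 2 and 2 in males. In the rest of the brain it was detected on 4 of 4 KO and 3 of 4 WT arrays, the exception being a WT male. It was the only one of the 29 probe sets whose calls did not overlap between KO and WT within a sex and brain part, and this was in male cerebellum, where 1 of the 2 KO values was marginal. With marginal values counted as detected the male cerebellum arrays overlapped, at 1 of 2 KO and 2 of 2 WT. Since 1435233_at and 1435234_at were designed from the same record, the transcript was detected on all 16 arrays by one of them.

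The other Ncoa2 probe sets were seldom detected. For 1446827_at the male arrays were at level 2 for replicate 1 and at level 0 for replicate 2 in each of the 4 groups, KO and WT, cerebellum and rest of brain. The female arrays were at level 1 on all 4 KO arrays, and at 0, 0, 0 and 2 on the WT arrays, the last being the WT female rest of brain replicate 2. Among the male arrays the calls of this probe set therefore followed the replicate number, in KO and WT alike, and it was the 1 coregulator probe set to do so. Over the whole array 18 of 45101 probe sets (0.0399%) had calls that did not overlap between male replicates 1 and 2, and 28 (0.0621%) between female replicates 1 and 2, where no coregulator probe set did. What the replicate numbers stand for is not given in the labels. The last one, 1450458_at, was detected on 1 array alone, the KO female cerebellum replicate 1. Ncoa3, which encodes SRC-3, the third p160 coactivator, was detected on all 16 arrays by both of its probe sets (1422737_at and 1448027_at).

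Nrip1 encodes RIP140, the ligand-dependent corepressor that counters PGC1α in metabolic tissues. Of its 6 probe sets, 1418469_at, 1434384_at and 1449089_at were detected on all 16 arrays and 1432603_at on none. The levels of 1447211_at in cerebellum were 0, 2, 0 and 0 on KO arrays and 0 on all 4 WT arrays, and in the rest of the brain 0, 2, 2 and 0 on KO arrays and 0, 2, 2 and 2 on WT arrays. It was thus detected on 1 of 8 cerebellum and 5 of 8 rest-of-brain arrays, the strongest difference between brain parts among the 29 probe sets (p = 0.119, Fisher's exact test, two-sided; adjusted p = 1). Its direction was the same within each genotype, at 1 of 4 against 2 of 4 in KO and 0 of 4 against 3 of 4 in WT. Leaving out the KO female cerebellum replicate 2, the 1 cerebellum array that detected it, gave an unadjusted p of 0.0256 by the same exact test. Leaving out any 1 of the 3 rest-of-brain arrays that did not detect it (WT female replicate 1, KO female replicate 1 or KO male replicate 2) gave 0.0406 by that test. None gave a call after adjustment. These arrays went against the difference, so that leaving them out could only lower p. Leaving out any other single array gave no p under 0.05.

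The remaining probe set of Nrip1, 1454295_at, varied mostly between arrays of 1 group. It was detected on 3 of 4 KO and 2 of 4 WT cerebellum arrays and on 3 of 4 KO and 1 of 4 WT rest-of-brain arrays. Pooled over brain parts this was 6 of 8 KO and 3 of 8 WT arrays, the strongest difference by genotype among the coregulators (p = 0.315, Fisher's exact test, two-sided; adjusted p = 1). One WT value, in female rest of brain, was marginal. None of the 4 male replicate 2 arrays detected it, KO or WT, while 3 of 4 male replicate 1 arrays did. It was designed from the same record as 1432603_at, which no array detected.

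Med1 encodes the Mediator subunit that docks on liganded receptors and on PGC1α, and it had the most probe sets, 7. Of these, 1421907_at, 1447450_at and 1448708_at were detected on all 16 arrays. The probe sets 1421906_at and 1450402_at, designed from the same record as 1421907_at, were detected on none, and 1450402_at held the 1 level below 0 among the 464 coregulator values, on the KO male cerebellum replicate 1. One record thus gave a probe set seen on every array and 2 seen on no array. Med1 1439408_a_at missed 1 array alone, the WT female cerebellum replicate 2, and so was detected on 8 of 8 KO arrays, 7 of 8 WT arrays and all arrays but that one. Med1 1453972_x_at was detected on 3 of 8 cerebellum arrays (1 KO and 2 WT) and 0 of 8 rest-of-brain arrays (p = 0.2, Fisher's exact test, two-sided; adjusted p = 1). The suffix marks a probe set whose probes can match other transcripts, so this one does not stand for Med1 alone.

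The study asks what the loss of the SINE isoform changes in the cerebellum, with the remaining brain as a second tissue. In the cerebellum, 5 of the 29 probe sets were detected on more KO than WT arrays (1 each of Ncoa1, Ncoa2 and Med1, and 2 of Nrip1), 2 on fewer (1 each of Ncoa2 and Med1) and 22 on the same number. Over all 45101 probe sets 3100 were detected on more KO and 3869 on more WT arrays. Taken as shares of arrays without the WT female cerebellum replicate 2, 4 coregulator probe sets were higher in KO, 3 lower and 22 equal. None of the 29 had calls that did not overlap between the 4 KO and 4 WT cerebellum arrays, against 17 of 45101 probe sets (0.0377%). In the rest of the brain 2 were detected on more KO arrays, 2 on fewer and 25 on the same number, and over all probe sets 2928 on more KO and 2785 on more WT arrays. Here none of the 29 had separate calls either, against 9 of 45101 (0.02%). No coregulator probe set had an unadjusted p under 0.05 in either brain part, the smallest being 0.429 for cerebellum and 0.486 for rest of brain by Fisher's exact test. These tests had next to no reach. With 4 against 4 arrays the smallest p is 0.0286, which needs detection on exactly 4 of the 8 arrays, and in cerebellum 0 of the 29 probe sets met that and in the other brain part 1 did. No probe set of the array could pass after adjustment.

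With both brain parts pooled, 4 of the 29 probe sets were detected on more of the 8 KO arrays, 2 on fewer and 23 on equal numbers. Over all probe sets 4108 were detected on more KO and 4669 on more WT arrays. Without the WT female cerebellum replicate 2 the coregulator counts, by share of arrays, were 3 higher in KO, 4 lower and 22 equal, so that their balance turned. None was separate between the genotypes, nor was any of the 45101 probe sets (0%), and none of the 29 had an unadjusted p under 0.05, against 38 of 45101 (0.0843%). Of the 29, 3 were detected on enough arrays, and not too many, for an unadjusted p under 0.05 to be possible between 8 and 8 arrays. A miss in these tests does not show that the transcripts were at equal levels.

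Within each sex, 2 against 2 arrays cannot give an exact p under 0.333, so only counts are given. None of the 29 probe sets separated KO from WT in female cerebellum, where 655 of 45101 (1.45%) did, nor in female rest of brain (0.94% of all probe sets) or male rest of brain (1.02%). In male cerebellum 1 of 29 did, the marginal case of Ncoa2 1435234_at described above, against 1.1% of all. In female cerebellum 6 coregulator probe sets were detected on more KO arrays and 1 on fewer, and over all probe sets 2791 on more KO and 2321 on more WT arrays. The coregulator count rested on the WT female cerebellum replicate 2: set against WT replicate 1 alone, 2 were higher in KO by share of arrays, 0 lower and 27 equal. Female cerebellum is also where the brain stem markers stood at 9 and 9 of 13 probe sets in KO and 4 and 0 in WT; their part in the calls was not tested.

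**Figure D2:**
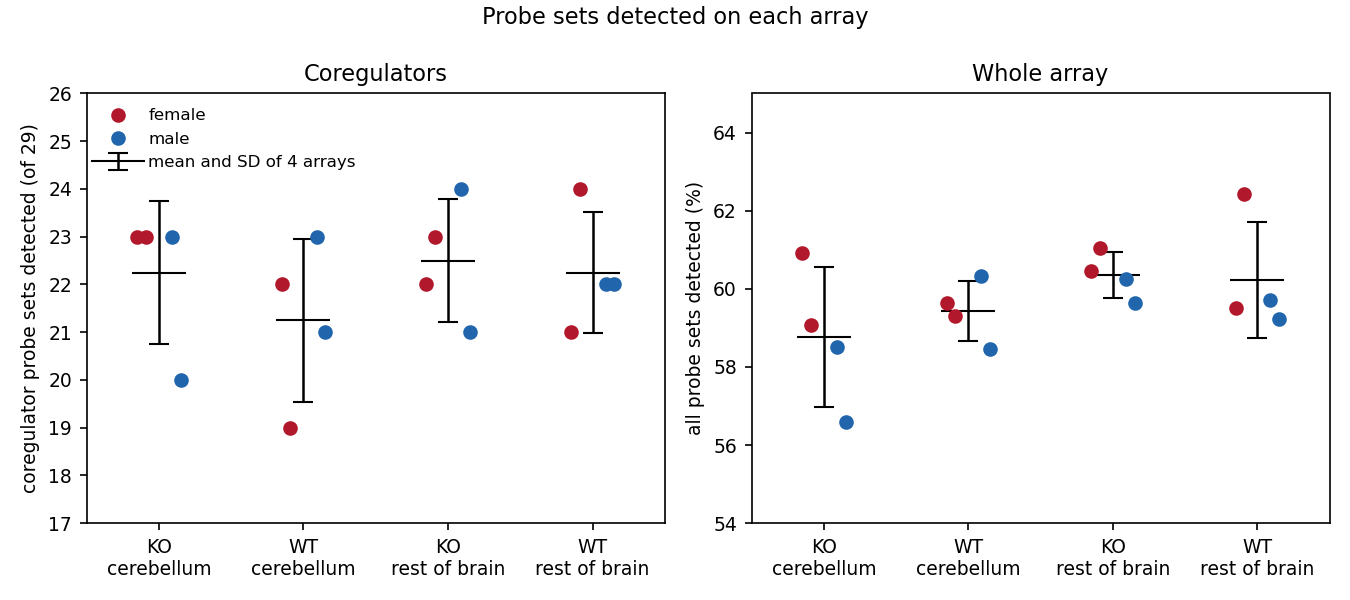
Number of coregulator probe sets detected on each array (left, of 29) and share of all probe sets detected (right, in %), with the mean and SD of the 4 arrays of each group; the axes do not start at 0. KO and WT arrays overlap in both brain parts, and the lowest coregulator count, 19, is the WT female cerebellum replicate 2.

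Counted per array, 20 to 23 of the 29 probe sets were detected in KO cerebellum and 19 to 23 in WT cerebellum, and 21 to 24 in both KO and WT rest of brain. The means were 22.3 ± 1.5 in KO and 21.3 ± 1.71 in WT cerebellum, and 22.5 ± 1.29 in KO and 22.3 ± 1.26 in WT rest of brain (SD, n = 4 arrays each). As shares, KO exceeded WT by 3.45 percentage points for cerebellum and by 0.862 points for rest of brain, both smaller than the SD between arrays of a group, which was 5.54 and 4.40 points. The cerebellum difference depended on single arrays. It was 0.862 points without the WT female cerebellum replicate 2 (SD 4.56), 5.46 points without the WT male cerebellum replicate 1 (SD 5.21) and 6.03 points without the KO male cerebellum replicate 2 (SD 4.56), the last 2 above the SD. The array with the lowest total of detected probe sets, the KO male cerebellum replicate 2 (25517), also had the fewest coregulator probe sets of the KO arrays, 20.

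The calls of the coregulators differed between KO and WT about as often as between replicates. The 2 arrays of a group disagreed at 1 to 5 of the 29 probe sets, with a mean of 2.88 (9.91%) over the 8 groups, against 6.81% of all probe sets. A KO and a WT array of the same sex and brain part disagreed at a mean of 2.5 (8.62%) over 16 pairs, against 6.75% of all probe sets. Replicates disagreed most in WT female cerebellum, at 5 probe sets, a pair that holds the array that stood apart, and least in KO female rest of brain, at 1.

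**Figure D3:**
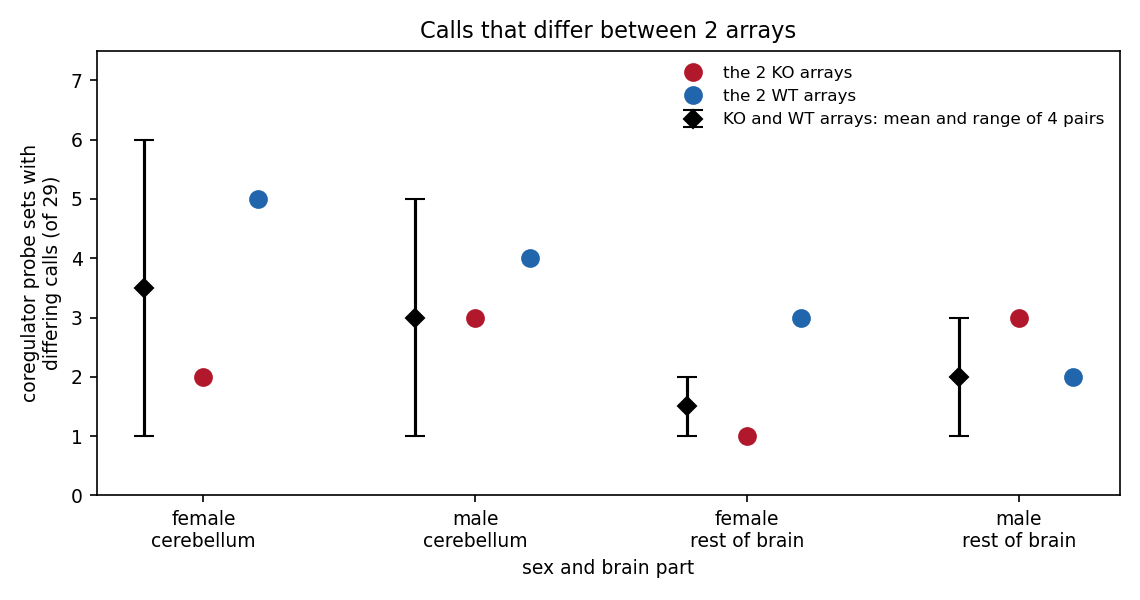
Number of the 29 coregulator probe sets called differently on 2 arrays, for each sex and brain part. Diamonds give the mean and range over the 4 pairs of a KO and a WT array, and circles the single pair of KO arrays (red) and of WT arrays (blue); the KO and WT pairs range from 1 to 6, and the replicate pairs from 1 to 5.

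Between the brain parts, 3 of the 29 probe sets were detected on more cerebellum arrays, 5 on fewer and 21 on equal numbers, and over all probe sets 4347 on more and 5717 on fewer. None was separate between the 8 cerebellum and 8 rest-of-brain arrays, against 140 of 45101 (0.31%), and none had an unadjusted p under 0.05, against 1247 (2.76%). Without the WT female cerebellum replicate 2, by share of arrays, 3 were higher in cerebellum, 4 lower and 22 equal. Within KO arrays none was separate either, against 1.25% of all probe sets, nor within WT arrays, against 0.585%. The mean number detected was 21.8 ± 1.58 on cerebellum arrays and 22.4 ± 1.19 on rest-of-brain arrays (SD, n = 8 each). The PGC1 family, Ncoa3 and at least 1 probe set of each other gene were thus called alike in both brain parts, at a resolution that shows presence and not level.

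Between the sexes, 3 coregulator probe sets were detected on more female arrays, 3 on fewer and 23 on equal numbers, while over all probe sets 5748 were detected on more female and 3540 on more male arrays. Without the WT female cerebellum replicate 2, by share of arrays, 5 of the 29 were higher in females, 2 lower and 22 equal. None separated 8 female from 8 male arrays, against 10 of 45101 (0.0222%), and none had an unadjusted p under 0.05, against 129 (0.286%). The smallest p among the 29 was 0.282 by Fisher's exact test.

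The partners of these proteins were described from lists of genes, and all p-values below are from Fisher's exact test, two-sided, with Benjamini-Hochberg adjustment over the 45101 probe sets. No probe set of any list passed after adjustment in the comparisons of genotype, brain part or sex, so the genes named here are given by their calls. Of the 259 probe sets in these lists, those with an unadjusted p under 0.05 were 1 by genotype (Creb1; 0.386%, against 0.0843% of all probe sets), 5 by brain part (Rxrg, Rora, Nr1h3, Atf2 and Mapk14; 1.93%, against 2.76%) and 1 by sex (Prkag2; 0.386%, against 0.286%). Between the brain parts the adjusted p could not go below 0.0501, the value shared by the 140 probe sets whose calls did not overlap, and a run limited to the 3873 probe sets able to reach an unadjusted p under 0.05 called 662.

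Of the nuclear receptors that PGC1 proteins bind, 21 of 23 listed genes had a probe set, and 21 of their 52 probe sets were detected on all arrays, 14 on none and 17 on some. The sharpest pattern was that of Rxrg, the retinoid X receptor found in striatum, detected on 0 of 8 cerebellum and 8 of 8 rest-of-brain arrays in KO and WT alike (exact test, adjusted p = 0.0501, and 0.0043 in the limited run). Rora, an orphan receptor that Purkinje cells need, had 6 of 9 probe sets on all arrays, and its 1458145_at was detected on 8 of 8 cerebellum and 2 of 8 rest-of-brain arrays (exact test, adjusted p = 0.476, and 0.0409 in the limited run). Nr1h3, the liver X receptor alpha, was detected on 5 of 8 cerebellum arrays (3 KO and 2 WT) and 0 of 8 rest-of-brain arrays (exact test, unadjusted p = 0.0256, adjusted p = 1). Esr1, the estrogen receptor alpha, had no probe set on all arrays. Its 1435663_at was at level 2 and 2 in KO female cerebellum and at 0 and 1 in WT female cerebellum, where 1.45% of all probe sets had calls that did not overlap and brain stem markers stood at 9 and 9 of 13 probe sets in KO and 4 and 0 in WT; their part was not tested. Its 1460591_at was detected on 3 of 8 KO and 3 of 8 WT arrays. Over the series 1435663_at was detected on 5 of 8 KO and 2 of 8 WT arrays (exact p = 0.315).

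Of the 12 transcription factors that PGC1 proteins bind or act with, all had a probe set on all 16 arrays, and of their 45 probe sets 31 were detected on all arrays, 7 on none and 7 on some. Creb1, the cyclic AMP response element binding protein that switches on Ppargc1a, had 2 of 6 probe sets on all arrays. Its 1423402_at was detected on 3 of 8 KO arrays and 8 of 8 WT arrays (exact test, unadjusted p = 0.0256, adjusted p = 1). Its levels were 0, 1, 2 and 0 in KO cerebellum and 2 on all 4 WT cerebellum arrays, and 0, 2, 1 and 2 in KO rest of brain and 2 on all 4 WT rest-of-brain arrays. With marginal values counted as detected it was 5 of 8 KO and 8 of 8 WT arrays (exact p = 0.2). Nrf1, the nuclear respiratory factor, had 3 of 4 probe sets on all arrays, and its 1420978_at was detected on 5 of 8 cerebellum and 1 of 8 rest-of-brain arrays (exact p = 0.119). A probe set of Mef2a, a muscle and neuronal activator of Ppargc1a, was detected on both WT and neither KO array of male rest of brain. Its levels there were 0 and 1 in KO and 2 and 2 in WT, and 1.02% of all probe sets had calls that did not overlap. A probe set of Hcfc1 was detected on 1 WT array alone.

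**Figure D4:**
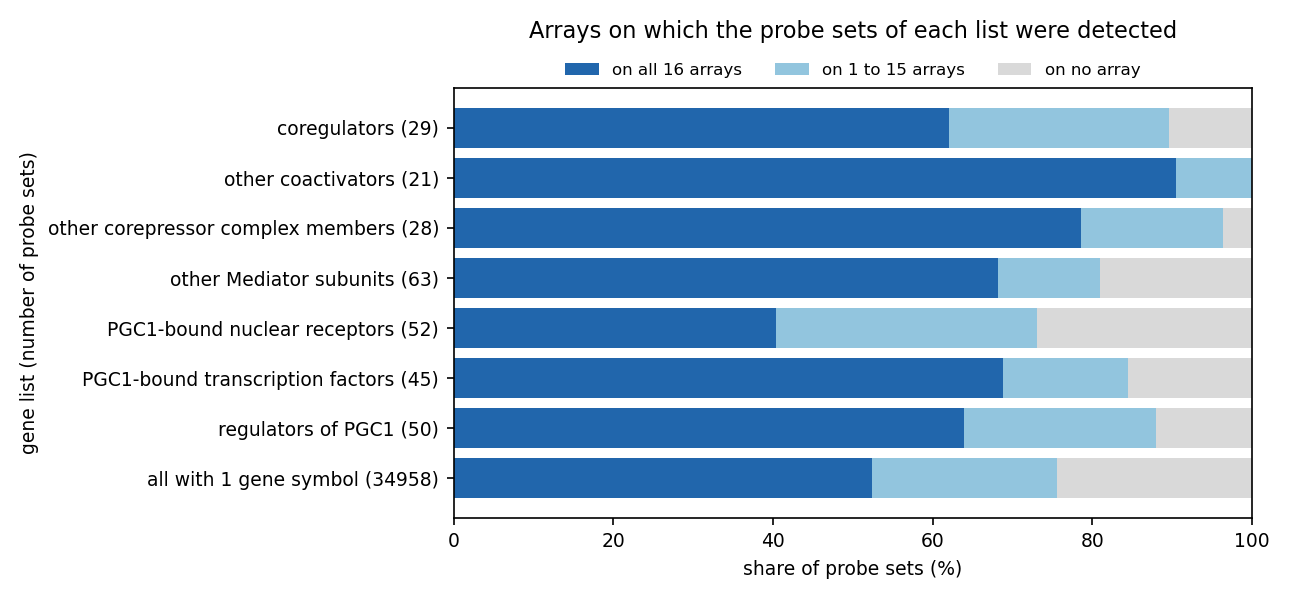
Share of the probe sets of each gene list (rows, with the number of probe sets) that were detected on all 16 arrays, on 1 to 15 or on none. The coregulators had 62.1% on all arrays, all probe sets with 1 gene symbol 52.5%, and the nuclear receptors the lowest share of the lists drawn, 40.4%.

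Of the kinases, acetylases and cofactors that act on PGC1 genes or proteins, all 16 listed genes had a probe set on all arrays, and of their 50 probe sets 32 were detected on all arrays, 6 on none and 12 on some. In female cerebellum, 3 of these 50 were seen in both KO samples but in neither WT sample and none the other way, namely Mapk11 1421925_at (a p38 kinase) and 2 probe sets of Camk4, a calcium-dependent kinase abundant in granule cells. For Camk4 1426167_a_at all 8 KO arrays and 6 of 8 WT arrays were at level 2, and the 2 at level 0 were the WT female cerebellum arrays. Over all 45101 probe sets, 335 were seen in female cerebellum only on the KO pair and 320 only on the WT pair. The WT pair includes the WT female cerebellum replicate 2, which stood apart with the fewest granule cell markers of the cerebellum arrays. The brain stem markers of the same arrays are given above, and the part of either here was not tested. Atf2, a CREB-like factor, had a probe set detected on 2 of 8 cerebellum and 8 of 8 rest-of-brain arrays, and Mapk14, the main p38 kinase, 1 on 1 of 8 and 7 of 8 (exact test, unadjusted p = 0.00699 for Atf2 and 0.0101 for Mapk14, adjusted p = 0.476 and 0.59, and 0.0409 and 0.0507 in the limited run).

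Of the other coactivators, 19 of 21 probe sets were detected on all 16 arrays and none on no array. The 2 that varied were 1441540_at of Ncoa7, detected on 3 of 8 cerebellum arrays (2 KO and 1 WT) and 0 of 8 rest-of-brain arrays, and 1450821_at of the acetyltransferase gene Kat2b, on 1 WT cerebellum array. Of the other corepressor complex members, 22 of 28 were detected on all arrays. A probe set of Tbl1xr1, the exchange factor of NCoR complexes, was on both KO and neither WT array of female rest of brain, and another, 1422761_at, on neither KO and both WT arrays of female cerebellum. A probe set of Lcor was on both KO and neither WT array of female cerebellum, the tissue with the brain stem marker difference. Calls of KO and WT arrays did not overlap for 0.94% of all probe sets in female rest of brain and 1.45% in female cerebellum. Hdac2 1439704_at was on 5 of 8 KO and 4 of 8 WT arrays. Of the other Mediator subunits, 43 of 63 probe sets were on all arrays, 12 on none and 8 on some, and each of the 31 genes had a probe set on all arrays. Med6 1439737_x_at was on both KO and neither WT array of male cerebellum, where calls did not overlap for 1.1% of all probe sets. In female cerebellum it was on 1 KO and 1 WT array. Over the series it was on 3 of 8 KO and 1 of 8 WT arrays, and with marginal values counted as detected on 4 and 3. Its suffix marks a probe set whose probes can match other transcripts. Ccnc 1454144_a_at was on 7 of 8 KO and 7 of 8 WT arrays, Med12l 1441163_at on 4 of 8 KO and 3 of 8 WT arrays, and Med15 1444680_at on 1 KO array.

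The patterns of the other variable coregulator probe sets were either common or rare on the array. Med1 1439408_a_at shared its pattern of calls, detected on all but 1 array, with 112 other single-symbol probe sets, and Ncoa2 1450458_at, detected on 1 array, with 105. Nrip1 1447211_at shared its calls with 2 others, those of Cyp2c68 and Arhgef25, equal to it in level on 15 and 14 arrays, and Med1 1453972_x_at with 2, those of Prrx2 and Stk39, equal on 14 and 13. Ncoa2 1435234_at, Ncoa2 1446827_at and Nrip1 1454295_at shared their calls with no other probe set. These likenesses are over 16 arrays of 1 experiment, and the more often a probe set is detected or missed the more others can match it.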

How the data were processed

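Total RNA of 16 mouse samples was hybridised to Affymetrix 3' arrays. The methods name a human array, but the probe sets carry the names of a mouse array. Per the methods and the processing notes in the labels the authors used MAS5, and the study's results name RMA and the LSTNR method. The deposited values are in no stated unit (unit: other). They are 5 distinct numbers, of which those above 5e-38 (level 2, 59.7% of values) were read as detected, and the others (marginal 1.51%, level 0 37.3%, 2 levels below 0, 0.267% and 1.19%) as not detected. Gene symbols came from the platform annotation, which gives 1 symbol to 34958 probe sets, several to 932 and none to 9211. The 9 genes and all lists were chosen with earlier results of these data known.

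Detected arrays were counted per probe set and compared with Fisher's exact test, two-sided, adjusted by Benjamini-Hochberg across the 45101 probe sets of the array (threshold 0.05). The calculation was also run on simulated data, in which some probe sets were made to differ completely between the groups. That run checks the calculation and not its reach in these data. Other genes were named by a rule: at most 4 a list, first those whose calls did not overlap between 2 groups, then by unadjusted p between brain parts. Alternatives counted marginal values as detected, left out levels below 0 or single arrays, counted by gene, limited the probe sets tested, permuted within strata or paired replicate numbers. Depth is unknown for arrays, and their number limits the precision. Promoters are from RefSeq (GRCm38.p6). Sequences of the probes and of the SINE exon were not analysed here. Scripts ran in Python 3.11.15 with scipy 1.17.1, pandas 2.3.3 and numpy 2.4.6, and figures were drawn with matplotlib 3.10.9.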

Additional observations from a re-analysis of the deposited data

Results flagged for a closer look

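The KO male cerebellum replicate 2 lay far below the other 3 KO cerebellum arrays in the number of coregulator probe sets detected, at 20 of 29 against 23, 23 and 23. Its levels were 0 for Ncoa2 1446827_at and Nrip1 1454295_at and 1 for Med1 1453972_x_at, all of which were at level 2 on its replicate. The array also had the lowest number of detected probe sets in the series, 25517, or 56.6% of all, and the part of this in the coregulator count was not tested. Neither Ncoa2 1446827_at nor Nrip1 1454295_at was detected on any male replicate 2 array, KO or WT. The WT cerebellum arrays ran from 19 to 23 of 29. The count was examined in 10 groups of arrays, among 184 checks for outliers and differences in all, and chance flags about 1 in 20 such groups.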

How the results depend on the processing

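The count of coregulator probe sets with an unadjusted p under 0.05 was 0 in each of the 7 comparisons. On leaving out single arrays it ranged from 0 to 1 between cerebellum and rest of brain, and from 0 to 1 between the same parts in WT, the 1 being Nrip1 1447211_at each time (p = 0.0285714 in WT without the WT female rest of brain replicate 1, Fisher's exact test). In each of these cases the array left out went against the difference, so that leaving it out could only lower p. In the replicate block, an exact permutation test that paired arrays of the same number, the count was 0 in all 7 comparisons. This says nothing about stability with 4 against 4 arrays, where the block cannot give a p below 0.125 nor permutation within strata one below 0.0556, nor does the 0 counted by gene, where all 8 genes are on all arrays, or that of the limited run, where 0 to 3 coregulator probe sets could be tested. Between groups, the deviations of arrays with the same replicate number had correlations from -0.02 to 0.06. These come from 2 arrays a group and cannot show whether arrays of the same number shared an animal or a litter. Over all probe sets the block gave 759 against 1247 unadjusted calls between brain parts, 5 against 38 by genotype and 32 against 129 by sex. Adjusted calls between brain parts were 0 in the full run, where the lowest adjusted p by Fisher's exact test was 0.0501, just over the threshold of 0.05. They were 132 without levels below 0 (42429 probe sets tested) and 61 counted by gene (18194 genes tested). In the limited run (3873 probe sets tested) they were 662, and with 1 array left out 144 to 257. The adjusted p depends on the number tested, and the part of this in the counts was not tested. The difference in the share of coregulator probe sets detected changed sign on leaving out single arrays for KO against WT in the rest of the brain (-0.862 to 2.87 percentage points), cerebellum against rest of brain in KO (-2.59 to 1.72) and female against male (-0.554 to 1.97). Counted by gene, it was 0, as all 8 genes were detected on all 16 arrays.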
